A study of Homo sapiens with 6 samples.

Results

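The receptors of the ERBB family and the ligands that bind them were examined in MDA-MB-231 cells with and without knockdown of ROR1. The 10 genes were chosen by name, although earlier results of these data were known at that time. They are the 4 receptors EGFR, ERBB2, ERBB3 and ERBB4 and the 6 ligands AREG, EREG, HBEGF, TGFA, NRG1 and BTC. Each had 1 row among the 57445 genes of the deposited table. With a filter of at least 1 TPM (a transcript level corrected for gene length and scaled to the total of the library) in at least 3 libraries, 8 of the 10 entered the test, among 16554 genes in all. ERBB4 and BTC lay below this filter and are given as levels only.

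MDA-MB-231 is a human breast cancer cell line of the triple-negative kind, long established in culture. The study asked which genes depend on the Wnt receptor ROR1, and sequenced 3 libraries of cells with a control vector (shCTL) and 3 of cells with a hairpin RNA against ROR1 (shRor1). All cells carried a lentiviral pGIPZ vector introduced at a multiplicity of infection of 5.0, were kept in serum, and were selected with 2 µg/ml puromycin, so that both groups share the vector, the infection and the drug. Whether each line was a pool or a clone is not given in the sources used here. The control is called an empty vector in the sample labels and a non-silencing hairpin in the paper, and the control columns of the table alone carry the word DMSO in their header. Any effect of that solvent and the effect of the hairpin cannot be told apart. Nothing states that the libraries of a group came from separate cultures, so p-values measure only the spread between these libraries. Libraries are named by their place among the columns of their condition, since the headers hold no number.

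ERBB receptors are tyrosine kinases of the cell surface that pair when a ligand binds and then start the RAS-ERK and PI3K cascades. EGFR binds AREG, TGFA, EREG, HBEGF and BTC, and ERBB4 also binds several of these. NRG1 binds ERBB3 and ERBB4, while ERBB2 has no known soluble ligand and acts as a partner of the others. The ligands are made as membrane-bound precursors and are released by metalloproteases such as ADAM17. Triple-negative cells lack amplified ERBB2, and many of them, MDA-MB-231 included, are known for abundant EGFR.

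The libraries had the transcripts of the labelled line. Its 5 mesenchymal markers (VIM, CD44, CAV1, ZEB1 and AXL) summed to between 3716 and 3974 TPM in shCTL and between 3771 and 4223 TPM in shRor1. The receptors ESR1 and PGR, which triple-negative tumours lack by definition, reached at most 0.21 and 0.01 TPM. Of the 7 luminal markers, KRT8, a keratin, was abundant at 404 to 595 TPM, and ERBB3 is itself a member of the family. The luminal markers GATA3, FOXA1 and CDH1 were also detected, at 3.83 to 4.69, 3.72 to 5.45 and 0.8 to 1.47 TPM. For CDH1 every shRor1 library lay above every shCTL library, as in 6.48% of all genes tested (adjusted p = 0.984 in limma). The 3 leukocyte markers were each below 1 TPM in every library, as was VWF, the 1 of 2 endothelial markers analysed here, and the 3 fibroblast markers summed to between 8.56 and 14.7 TPM, most of it COL1A1. Between 16036 and 17033 genes reached 1 TPM per library, and mitochondrial genes took 7.57% to 9.90% of the TPM. In bulk RNA, fewer cells that express a gene and less RNA per cell cannot be told apart.

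ROR1, the target of the hairpin, stood at 15.42, 13.49 and 20.56 TPM in control cells. After knockdown it stood at 9.34, 11.93 and 14.85 TPM, or 73% of the control mean. The lowest control library lay below the highest knockdown library, so the groups overlapped. The log2 fold change was -0.43 (95% confidence interval -0.88 to 0.03, adjusted p = 0.984 from limma), and a two-sided exact permutation test gave p = 0.2, with 0.1 the smallest value this design allows. The unadjusted p of limma was 0.0649. It was 0.0151 after quantile normalization and 0.0233 after median ratio scaling. Without the third shCTL library it was 0.205, and without the first shRor1 library it was 0.207. The fold change was below 0 in each of the 17 alternatives. The adjusted p of ROR1 was 0.625 or more in all of them. These values are of RNA only. The paper reports a stable knockdown and shows the ROR1 protein by Western blot, which was not measured here.

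No member of the ERBB family passed the test. Of the 8 members tested with limma, 0 had an adjusted p below 0.05, as did 0 of all 16554 genes (0%). The paper's own count model in edgeR called AGR2 and an uncharacterized gene, neither of them a member. An unadjusted p below 0.05 was found for 0 members, against 382 genes higher (2.31%) and 90 genes lower (0.544%) in shRor1. In 0 members did the 3 libraries of one condition lie wholly above or below those of the other, a pattern shown by 6.48% of all genes in the higher and 1.3% in the lower direction. The fold change was above 0 in 7 of the 8 members and in 67% of all genes. The median over the members was 0.13 and that over all genes 0.05 on the log2 scale. This slant of all genes depended on the scaling: of the genes whose groups did not overlap, 83.3% were higher with TPM as deposited, 50.6% after quantile normalization and 53.9% after median ratio scaling.

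**Figure D1:**
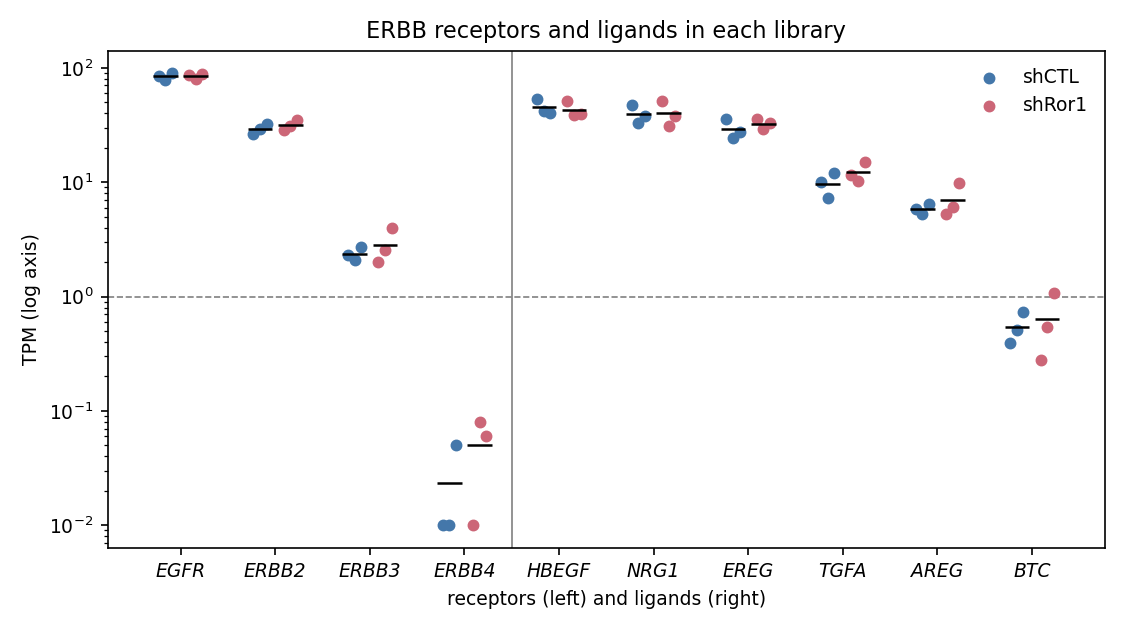
TPM of the 4 receptors and 6 ligands in each library, on a log axis. Points are libraries in their order in the table, black bars are group means (n = 3), and the dashed line marks the filter at 1 TPM. EGFR lies highest, between 78.01 and 89.38 TPM, ERBB4 lies lowest, and the groups overlap for each of the 8 tested genes.

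EGFR was the most abundant transcript of the family in each of the 6 libraries. It lies on chromosome 7 of GRCh37, from 55086710 to 55279321 on the plus strand, and had 85.21, 78.01 and 89.38 TPM in shCTL and 86.57, 80.11 and 88.54 TPM in shRor1. In both conditions the library at the second place was lowest and that at the third place highest, and the shRor1 values fell within the range of shCTL. The means were 84.2 ± 5.75 and 85.1 ± 4.41 TPM (SD, n = 3), and the shCTL mean lay above that of 87.6% of the genes tested. The log2 fold change was 0.02 (SE 0.08, adjusted p = 0.992 from limma), and its 95% interval reached from 0.889-fold to 1.15-fold. The sign of so small a value was not stable: it was negative after quantile normalization (-0.0035) and median ratio scaling (-0.04), without the second shCTL library (-0.04) and without the third shRor1 library (-0.01). EGFR also varied little, since its SD within conditions was 0.09 on the log2 scale, smaller than that of all but 17.6% of the genes tested.

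The antisense gene EGFR-AS1 shares 186 exon bases with EGFR on the opposite strand and was outside the rule for named genes. It had 0.37, 0.45 and 0.32 TPM in shCTL and 0.58, 0.62 and 0.56 TPM in shRor1. These groups did not overlap, but the gene lay below the filter and was not tested in the main fit. Without that filter, 5.2% of 39104 genes lay wholly higher in shRor1. The library kit keeps the strand, and whether the counting used it is not given in the sources used here.

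ERBB2, the partner receptor without a ligand of its own, lies on chromosome 17 from 37844167 to 37886679. Its values were 26.55, 29.41 and 32.17 TPM in shCTL and 28.5, 30.94 and 34.9 TPM in shRor1. The libraries of both conditions interleaved from the first place to the third. With means of 29.4 ± 2.81 and 31.4 ± 3.23 TPM (SD, n = 3), the log2 fold change was 0.09 (95% interval -0.16 to 0.35, adjusted p = 0.984). Part of its exons overlaps genes on the opposite strand, 571 bases with MIEN1 and 144 bases with PGAP3. The 7 neighbours that are gained together with ERBB2 in amplified tumours summed to 87.2 to 109.9 TPM in shCTL and 88.6 to 118 TPM in shRor1, most of it from the cholesterol transporter STARD3 and from MIEN1. Of the 5 that were tested, 3 had a positive and 2 a negative fold change and 0 passed the test.

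ERBB3, the kinase-impaired neuregulin receptor, was scarce. It lies on chromosome 12 from 56470583 to 56497289 and had 2.31, 2.1 and 2.72 TPM in shCTL and 1.99, 2.57 and 3.98 TPM in shRor1. The third shRor1 library stood above all the rest, while the first was the lowest of all. The log2 fold change of 0.16 (95% interval -0.31 to 0.63, adjusted p = 0.984) turned to -0.04 without the third shRor1 library. ERBB4, the other neuregulin receptor, lies on chromosome 2 from 212240442 to 213403565 and had no more than 0.01, 0.01 and 0.05 TPM in shCTL and 0.01, 0.08 and 0.06 TPM in shRor1. With values this close to the last decimal of the table, no difference was detectable.

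Receptor transcripts were thus mostly EGFR. Its share of the summed receptor TPM was 72.6% ± 1.84 in shCTL and 71.3% ± 2.36 in shRor1 (SD, n = 3). ERBB2 made up 25.3% ± 1.85 and 26.3% ± 1.71, and ERBB3 2.04% ± 0.136 and 2.36% ± 0.716. These shares are taken within a library, so that scaling between libraries does not enter them. EGFR exceeded ERBB2 by a ratio of 2.88 ± 0.292 in shCTL and 2.72 ± 0.275 in shRor1, a difference smaller than either SD.

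Some of the ligands are neighbours. EREG, AREG and BTC lie with the further ligand gene EPGN within 546 kb of chromosome 4, yet their levels differed widely. EREG, the ligand epiregulin, lies from 75230862 to 75254466 and had 35.8, 24.33 and 27.17 TPM in shCTL and 35.69, 29.3 and 32.69 TPM in shRor1. The first library was the highest in both conditions, and the groups overlapped. Its log2 fold change was 0.17 (SE 0.15, 95% interval -0.17 to 0.51, adjusted p = 0.984). Without the first shCTL library the 2 remaining controls lay below all 3 knockdown libraries, and the fold change was 0.32 (unadjusted p = 0.0337 and adjusted p at least 0.766 in limma over the alternatives).

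AREG, the ligand amphiregulin, starts 56.4 kb beyond the end of EREG, from 75310853 to 75320722. Its values were 5.8, 5.28 and 6.41 TPM in shCTL and 5.25, 6.01 and 9.85 TPM in shRor1. The third shRor1 library stood apart upward, while the others lay within or below the control range. The log2 fold change was 0.20 (95% interval -0.29 to 0.68, adjusted p = 0.984), and -0.04 without the third shRor1 library. AREG has a near-identical copy, AREGB, and 77.6% of the 50-base words of its transcript, 50 bases being the read length, occur again in the genome, all of them between 75480629 and 75490481 on chromosome 4, within AREGB. AREGB was listed at 0 in 5 libraries and at 0.05 TPM in the third shRor1 library. Reads from the shared words cannot be told apart by sequence, and almost none were assigned to AREGB. Whether the AREG row holds any reads of AREGB was not tested.

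BTC, the ligand betacellulin, lies at the far end of the cluster, from 75669969 to 75719733 on the minus strand. It had 0.39, 0.51 and 0.73 TPM in shCTL and 0.28, 0.54 and 1.07 TPM in shRor1, with the lowest and the highest library both in shRor1. EPGN, the ligand epigen at the other end, had a mean of 0.28 TPM over the 6 libraries. Against these, the means over the same libraries were 30.8 TPM for EREG, 6.43 TPM for AREG and 0.587 TPM for BTC. The ratio of EREG to AREG was 5.01 ± 1.03 in shCTL and 5.00 ± 1.74 in shRor1 (SD, n = 3).

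The 120 bases before the annotated start of these neighbours are shown because they are members of 1 cluster with unlike levels. They are from RefSeq (GRCh38.p14, another build than that of the gene positions), at chr4:74365025-74365144 for EREG and chr4:74445016-74445135 for AREG, both on the plus strand, and at chr4:74794524-74794643 on the minus strand for BTC, each written on the strand of the gene. Capitals mark matches on either strand to one of 5 words: the TATA box, spelled TATAAA, the cAMP response element, spelled TGACGTCA, the GC box, spelled GGGCGG, the CCAAT box, spelled as its name, or the AP-1 site, spelled TGANTCA with N for any base.
EREG: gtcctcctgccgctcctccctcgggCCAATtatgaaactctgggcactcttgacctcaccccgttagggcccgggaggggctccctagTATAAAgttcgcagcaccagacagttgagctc
AREG: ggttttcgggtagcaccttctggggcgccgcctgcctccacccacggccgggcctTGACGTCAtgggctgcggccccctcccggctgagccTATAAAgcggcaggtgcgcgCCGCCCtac
BTC: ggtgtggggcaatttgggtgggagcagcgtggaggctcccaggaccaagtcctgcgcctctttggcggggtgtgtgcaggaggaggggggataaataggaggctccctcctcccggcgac
The TATA box letters begin 32 bases before the start of EREG and 29 bases before that of AREG, and 10.7% of 35116 RefSeq windows hold them within the 250 bases searched. EREG has CCAAT letters 95 and 196 bases before its start, as 32.0% of windows have at least once. AREG alone among the 3 has the cAMP response element, 65 bases before its start, found in 1.65% of windows, and a GC box 9 bases before it, found in 42.6%. BTC has none of the 5 words in this window, and an AP-1 site, found in 6.57% of windows, is in none of the 3. The matches do not overlap each other. They describe the sequence, and binding was not measured.

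HBEGF, heparin-binding EGF-like growth factor, was the most abundant of the ligands by its mean. It lies on chromosome 5 from 139712428 to 139726188 and had 53.22, 42.23 and 40.34 TPM in shCTL and 50.84, 38.78 and 39.15 TPM in shRor1. The first library stood well above the others in both conditions. It was the only tested member with a fold change below 0, at -0.08 (SE 0.14, 95% interval -0.41 to 0.26, adjusted p = 0.986), and was at 0.04 without the first shCTL library. Without the first shRor1 library, both remaining knockdown libraries lay below all controls, at a fold change of -0.20.

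TGFA, transforming growth factor alpha, had the largest fold change of the members in size. It lies on chromosome 2 from 70674416 to 70781325 and had 9.96, 7.23 and 11.93 TPM in shCTL and 11.62, 10.31 and 14.86 TPM in shRor1. Each knockdown library lay above at least 1 control, and the highest control lay above 2 knockdown libraries, so the groups overlapped. The means were 9.71 ± 2.36 and 12.3 ± 2.34 TPM (SD, n = 3), 126% of the control. On the log2 scale the change was 0.32 (SE 0.19, 95% interval -0.13 to 0.77, adjusted p = 0.984), with a two-sided exact permutation p of 0.3. It stayed above 0 with each library left out, from 0.14 to 0.47, and reached 0.47 without the third shCTL library, when its groups no longer overlapped.

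NRG1, neuregulin 1, was about as abundant as HBEGF. It lies on chromosome 8 and had 47.55, 33.22 and 37.58 TPM in shCTL and 51.02, 31.05 and 37.55 TPM in shRor1. The order of the libraries was the same in both conditions, from the first as the highest to the second as the lowest, and the shRor1 libraries enclosed the controls. The log2 fold change was 0.0013 (SE 0.19, 95% interval -0.45 to 0.46, adjusted p = 0.999), so that a change of up to 1.37-fold upward or down to 0.731-fold lay within the interval. Its sign turned in several alternatives, furthest without the first shRor1 library (-0.19). Other genes annotated on the same strand share 189 and 1835 exon bases with it, and how their reads were divided was not tested.

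**Figure D2:**
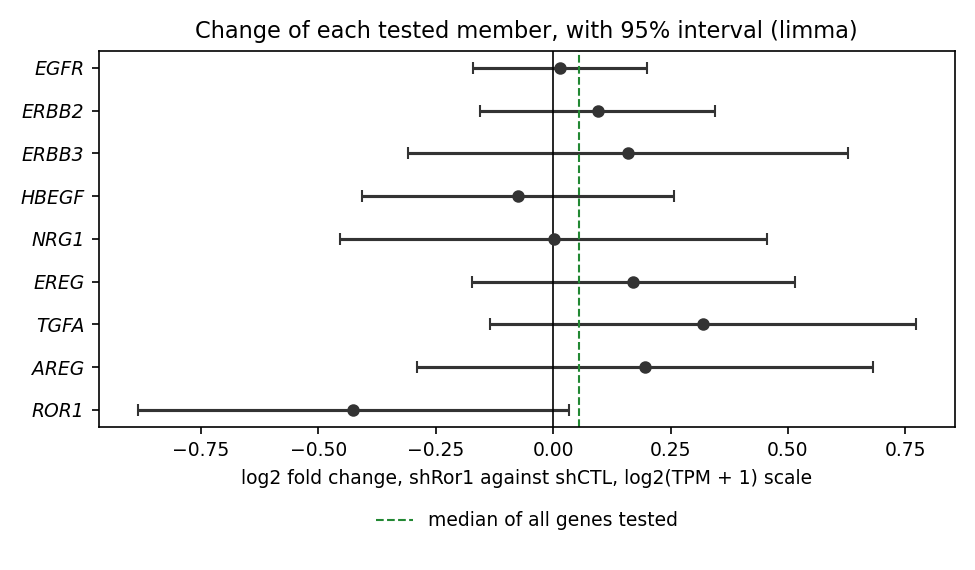
Log2 fold change of shRor1 against shCTL for the 8 tested members and ROR1, on the log2(TPM + 1) scale, with 95% confidence intervals from limma. The solid line is 0 and the dashed line the median of all genes tested (0.05), and each interval includes 0.

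Among the ligand transcripts, 3 genes made up most of the total. HBEGF had a share of 34.9% ± 2.47 of the summed ligand TPM in shCTL and 31.8% ± 2.43 in shRor1 (SD, n = 3). NRG1 followed with 30.3% ± 0.843 and 29.2% ± 3.33, and EREG with 22.3% ± 1.00 and 24.2% ± 1.10. The shares of TGFA were 7.51% ± 1.82 and 9.13% ± 1.75, those of AREG 4.55% ± 0.692 and 5.29% ± 1.95, and BTC stayed under 1%. For EREG the share was 23.4%, 21.6% and 21.9% in shCTL and 23.1%, 25.3% and 24.2% in shRor1, so that 2 of the 3 knockdown libraries lay above all controls. In total the ligands had 129.9 ± 20.6 and 135 ± 19.4 TPM, and the receptors 116 ± 7.58 and 119 ± 7.18 TPM.

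**Figure D3:**
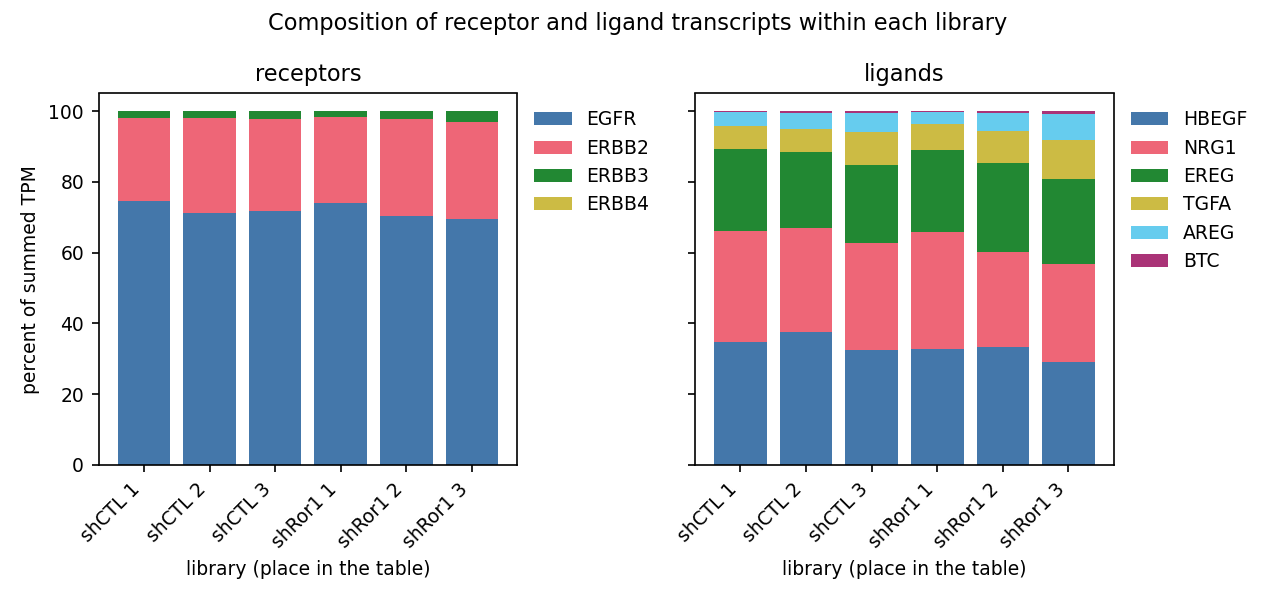
Share of each receptor (left) and each ligand (right) in the summed TPM of its kind, in percent, for each library in the order of the table. EGFR takes 69.5% to 74.7% of the receptor TPM, and HBEGF, NRG1 and EREG together take most of the ligand TPM in both conditions.

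Ordered by the mean TPM over the 6 libraries, EGFR came first at 84.6, followed by HBEGF at 44.1, NRG1 at 39.7, EREG at 30.8 and ERBB2 at 30.4. The ranges of HBEGF and NRG1, of NRG1 and EREG, and of EREG and ERBB2 overlapped. Next came TGFA at 11 and AREG at 6.43, whose ranges also overlapped, although TGFA was the higher in each of the 6 libraries. ERBB3 at 2.61, BTC at 0.587 and ERBB4 at 0.0367 closed the order, and each of these was separated from its neighbours by its range.

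The libraries varied in a way that the conditions did not explain. For 8 of the 8 tested members, the highest library stood at the same place in the table in both conditions, a pattern shared by 57.4% of all genes. EREG, HBEGF and NRG1 were highest in the first libraries. EGFR, ERBB2, ERBB3, AREG and TGFA were highest in the third. The headers do not say that libraries at the same place belong together, and what they share was not tested. Within conditions the log2 SD was 0.31 for AREG and NRG1 and 0.29 for TGFA, against a median of 0.15 over all genes.

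**Figure D4:**
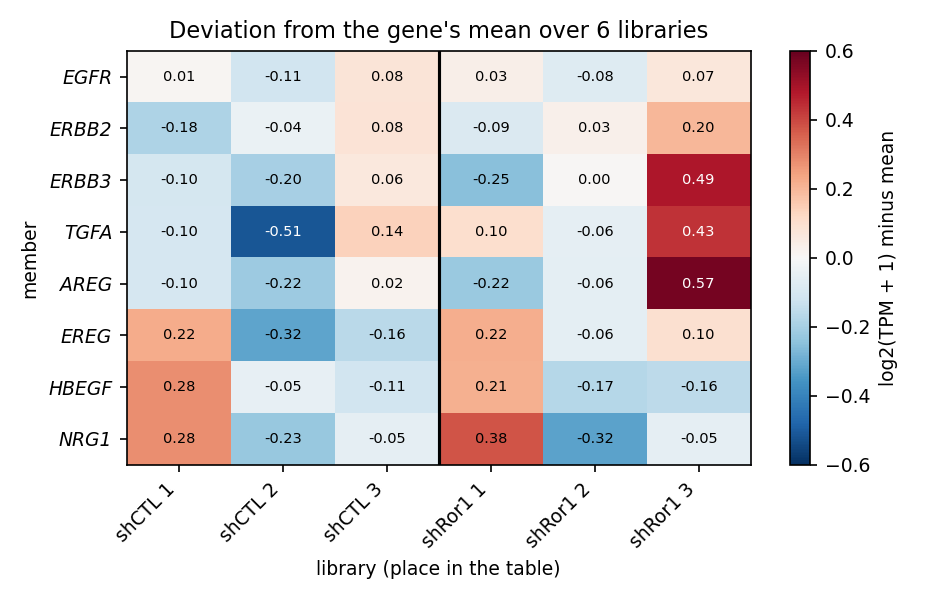
Deviation of each tested member from its own mean over the 6 libraries, in log2(TPM + 1), with libraries in columns and the conditions divided by a line. HBEGF and NRG1 are high in the first library of both conditions, and ERBB3, TGFA and AREG are high in the third shRor1 library.

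Across the 6 libraries some members moved alike. ERBB3 and AREG had a Pearson correlation of 0.988, with both highest in the third shRor1 library. HBEGF and NRG1 had one of 0.883, while ERBB2 and HBEGF ran opposite at -0.86. Members were shared between such pairs: EGFR and TGFA had 0.849, ERBB2 and ERBB3 0.844, and EREG and NRG1 0.794. The 3 tested genes most like EGFR were B3GNTL1 (0.998), MAD2L1BP (0.994) and CSTF1 (0.993). So close a likeness is usual with 6 points, since the third-highest correlation of a gene had a median of 0.990 over all genes. These are descriptions: each point is 1 library, whose depth and handling are common to all of its genes.

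The wider pathway was read from 6 lists of genes with known roles around the receptors. These lists, too, were chosen with earlier results of these data known. Of the 76 genes listed, 74 were tested, and 0 passed an adjusted p of 0.05. A positive fold change was found in 57 and a negative one in 17, which is 77% positive against 67% of all genes. In 10 genes (13.5%, against 6.48% of all genes) every knockdown library lay above every control, and in 0 the reverse held. After quantile normalization the count was 6 (8.11%, against 3.27% of all genes), and after median ratio scaling it was also 6 (against 3.65%). With an unadjusted p below 0.05, 5 genes were higher (6.76%, against 2.31% of all genes) and 0 lower. The higher genes numbered 3 after median ratio scaling (4.05%, against 1.39%) and 0 without the third shRor1 library (against 1.35%). The median was 0.07 on the log2 scale, beside 0.05 for all genes.

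Of the 5 further ligands, NRG2, NRG4 and EGF were tested, and their fold changes of 0.15, 0.14 and 0.16 made a list median of 0.15. EGF, the founding ligand of EGFR, had a mean of 1.76 ± 0.691 TPM in shCTL and 2.10 ± 0.786 TPM in shRor1, far below HBEGF or EREG. EPGN and NRG3 were below the filter. The signs of NRG4 and EGF each turned without 1 library, to -0.0051 without the second and to -0.02 without the third shRor1 library.

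Of the 9 genes of ligand shedding, 8 had a positive fold change, with a median of 0.13. RHBDF2 encodes iRhom2, which brings ADAM17 to the cell surface, and had 20.59, 23.08 and 22.88 TPM in shCTL and 24.03, 28.8 and 30.91 TPM in shRor1. All of its knockdown libraries lay above the controls (log2 fold change 0.31, 95% interval 0.05 to 0.57, unadjusted p = 0.024 and adjusted p = 0.984 in limma). ADAM17 itself, the main sheddase of AREG, EREG, TGFA and HBEGF, had 29.55, 28.67 and 31.75 TPM in shCTL and 30.75, 33.17 and 38.9 TPM in shRor1. Its groups overlapped in 1 library on each side (log2 fold change 0.18, adjusted p = 0.984). RHBDL2, a rhomboid protease of the cell surface, had a fold change of 0.36 at 1.76 to 3.91 TPM, also with overlapping groups and an adjusted p of 0.984.

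Among the 17 adaptors and membrane-proximal effectors, 13 were positive and 4 negative, with a median of 0.06. SOS1, which loads RAS with GTP, had 16.55, 15.88 and 16.46 TPM in shCTL and 16.63, 20.52 and 21.78 TPM in shRor1. The groups did not overlap, though the nearest libraries almost met (log2 fold change 0.25, adjusted p = 0.984). The catalytic PI3K subunits PIK3CA and PIK3CB had fold changes of 0.23 and 0.12. In the RAS-ERK cascade 7 of the 12 genes were positive and 5 negative, with a median of 0.02, below that of all genes. HRAS at -0.16 and MAP2K1 at 0.13 had the smallest p, and the groups of each overlapped.

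Of the 19 negative regulators, 15 were positive and 4 negative, with a median of 0.09. ERRFI1 encodes MIG6, which binds and blocks the EGFR kinase, and had 95.42, 96.21 and 104.59 TPM in shCTL and 103.28, 126.2 and 137.53 TPM in shRor1. The first knockdown library lay within the control range and the others above it (0.30, 95% interval 0.04 to 0.56, unadjusted p = 0.0288 and adjusted p = 0.984 in limma). SPRED1, an inhibitor of RAS activation, had 26.06, 22.83 and 24.06 TPM in shCTL and 29.14, 27.64 and 29.25 TPM in shRor1. Here every knockdown library lay above every control (0.23, unadjusted p = 0.0259 and adjusted p = 0.984 in limma). The unadjusted p of SPRED1 in limma was 0.0584 after quantile normalization and 0.0761 after median ratio scaling. SPRY2, a feedback inhibitor of the same cascade, had a fold change of 0.19 without overlap of the groups.

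Of the 16 genes used as readouts of ERK activity, 13 were positive and 3 negative, with a median of 0.05, equal to that of all genes at this precision. PHLDA1 had 85.48, 80.57 and 91.51 TPM in shCTL and 93.5, 105.87 and 107.87 TPM in shRor1. IER3, an immediate early gene, had 141.33, 134.99 and 132.97 TPM in shCTL and 151.28, 154.39 and 166.58 TPM in shRor1. Neither gene had overlapping groups, and the fold changes were 0.25 and 0.20 (unadjusted p = 0.0194 and 0.0185, adjusted p = 0.984 for both in limma). After median ratio scaling the unadjusted p in limma was 0.0361 for PHLDA1 and 0.0842 for IER3.

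**Figure D5:**
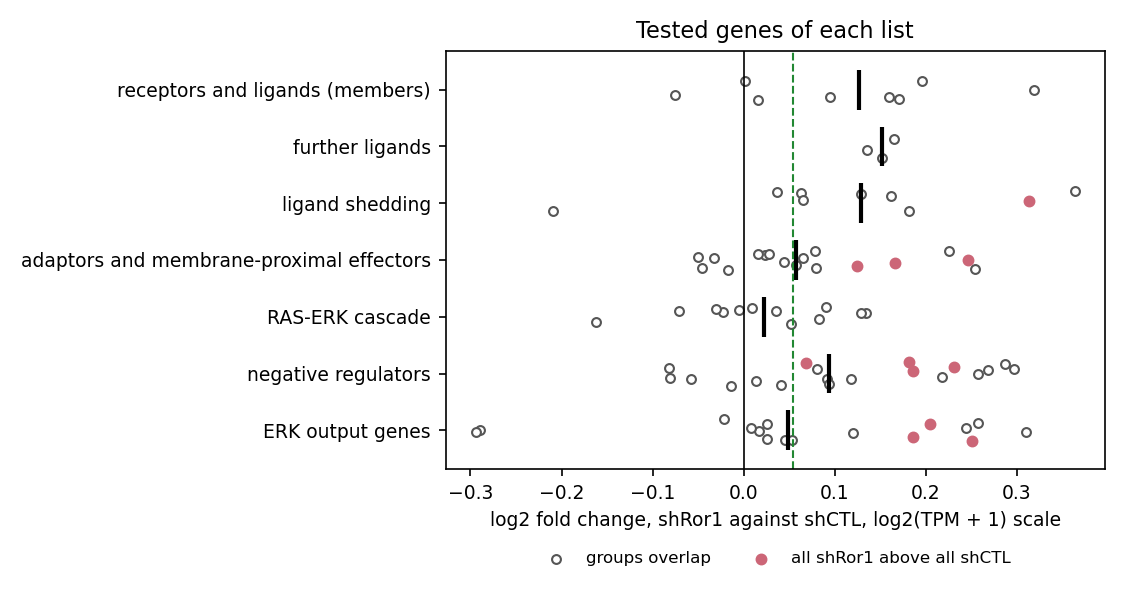
Log2 fold change of each tested gene, shRor1 against shCTL on the log2(TPM + 1) scale, by list, with the members in the top row. Filled points are genes whose 3 knockdown libraries all lay above the 3 controls, thick bars are list medians and the dashed line is the median of all genes tested (0.05). None of the 8 members is filled, and 10 genes of the other lists are, with SPRY2 drawn in 2 lists.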

How the data were processed

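MDA-MB-231 cells with a control vector (shCTL) and with a ROR1 hairpin (shRor1) were compared, with 3 libraries each. Per the labels and the paper's methods, RNA was sequenced as single reads of 50 bases with a strand-specific kit from total RNA, although the labels also call it polyA RNA. Reads were aligned by the authors to GRCh37 with STAR, and RSEM 1.2.5 gave the gene abundances. The submitters' processing notes also name CASAVA 1.8.2, FastQC 0.10.0 and edgeR. The values deposited by the authors are TPM, although the table is named for expected counts, with 2 decimals and a total of about 1000000 per library. Because TPM are relative within a library, a rise of abundant genes pushes all other values down. They hold no counts, and the mapped reads the paper lists per replicate could not be tied to single columns, so no counting intervals are given and count tests were not run.

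The 16554 of 57445 genes that reached 1 TPM in 3 or more libraries were fitted with limma 3.58.1 in R 4.3.3 on log2(TPM + 1), with the condition as the only term and trended empirical Bayes variances. Benjamini-Hochberg adjustment ran over all genes tested, at 0.05. Fold changes are on that log2 scale, which understates changes of low genes. Single genes also had an exact permutation test (scipy 1.17.1). The fit was tested on simulated data with independent genes and with changes larger than those of the members and ROR1. That test does not show what the fit would find at their size. Symbols matched 55022 identifiers, and positions are from GENCODE 44 on GRCh37.

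The named genes are the members, ROR1, AREGB, the marker genes, the 3 genes most correlated with EGFR and, from each pathway list, the genes with an unadjusted p below 0.05 or, where fewer than 3, the 3 with the smallest p, of which 1 gene is not reported here. The lists are further ligands, ligand shedding, adaptors and membrane-proximal effectors, the RAS-ERK cascade, negative regulators and ERK output genes, besides the neighbours of ERBB2 and the cell markers. The members and lists were chosen with earlier results of these data known. Promoter windows were matched for 8 of the 10 members. Windows on chromosome 8, where NRG1 lies, were left out of the search, and ERBB3 had no matched window.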

Additional observations from a re-analysis of the deposited data

How the results depend on the processing

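No paired analysis was possible because the headers of the table do not number the libraries. The order of the columns could have served as a block, but nothing states that it pairs libraries, and that fit was not run. What libraries at the same place share therefore stays in the error of the main fit. Place by place, ERBB2 and TGFA were higher and HBEGF and ROR1 lower in shRor1 each time. For these genes the main fit cannot decide whether a test that takes out the shared part would call them. EGFR, ERBB3, AREG, EREG and NRG1 differed in direction between places. The fit was repeated with a pseudocount of 0.1, other filters, quantile normalization, median ratio scaling, other variance models, array weights, AREG and AREGB summed, TPM summed by symbol and each library left out, and, chosen after the data were seen, with protein-coding genes only and with the first principal component of the residuals added to the model. The replicate block and the count tests were not run. The number of genes past an adjusted p of 0.05 was 0 except without the third shRor1 library, when it was 1, the pseudogene RPL39P3, and thus ran from 0 to 1 with libraries left out. No member passed an adjusted p of 0.05 in any of these fits. The number of members whose groups did not overlap ran from 0 to 1 with libraries left out: EREG without the first shCTL library, TGFA without the third, and HBEGF without the first shRor1 library.

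Of 26 single genes, 19 kept their direction throughout and 7 did not, and the cause was not tested. EGFR was at -0.0035 after quantile normalization and -0.045 after median ratio scaling, and ran from -0.038 to 0.059 with libraries left out (-0.013 without the third shRor1 library). NRG1 was at -0.039 and -0.058 in the same 2 fits and, with array weights, at -0.095, and ran from -0.19 to 0.16 with libraries left out (-0.11 without the second and -0.025 without the third shCTL library). With libraries left out, ERBB3 ran from -0.043 to 0.32, AREG from -0.042 to 0.36, HBEGF from -0.20 to 0.044, NRG4 from -0.0051 to 0.31 and EGF from -0.023 to 0.36. TGFA ran from 0.14 to 0.47 and ROR1 from -0.58 to -0.26. With the leading residual component, TGFA had an unadjusted p of 0.0276 and ROR1 one of 0.00561, values that can be too small because the component came from the same residuals, and the lowest adjusted p of TGFA over all alternatives was 0.61 (limma). At an unadjusted p below 0.05 the pathway lists had 0 to 14 genes higher with libraries left out, the most without the first shRor1 library (18.9%, against 7.74% of all genes), 10 with array weights (13.5%, against 4.28%) and 10 with the residual component (against 5.53%). The number of their genes whose groups did not overlap ran from 10 to 22 with libraries left out (29.7% without the first shRor1 library, against 21.4% of all genes) and was 6 under either rescaling.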

Other observations

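Deviations from the condition means were compared between libraries over the 16554 genes tested. The correlation between libraries at the same place in the table was 0.284, 0.238 and 0.399, and that between libraries at other places ran from -0.281 to -0.0031. The 2 sets of values are not independent. Deviations cancel out within a condition for each gene, so positive values at the same place push the others to be negative. Genes of one library share its depth and handling, so this is a description, and the headers do not state that libraries at the same place were made together. Without the filter on low values, the log2 fold changes of the members below it were 0.06 (SE 0.20) for BTC and 0.04 (SE 0.04) for ERBB4, both with overlapping groups.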
